A study of Mus musculus with 16 samples.

Results

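The collagen chains are the 44 protein-coding genes in the bulk counts matrix whose symbol is Col, a number, the letter a and a number, out of 21942 protein-coding genes and 53465 genes in all. The symbol alone chose them, and no measured value was used. MC38 tumors, grown from a mouse line that is labelled as colorectal carcinoma, were raised by injecting cells under the skin of the right flank of female C57BL/6 mice aged 6 to 8 weeks. Mice whose tumors reached 150 to 250 mm3 on day 16 received 200 ug of control IgG or of an antibody against PD-1 (aPD-1) on days 16 and 20, and tumors were taken on day 21. There were 8 IgG tumors (replicates 1 to 8), 6 aPD-1 non-responder tumors (9 to 14) and 2 aPD-1 responder tumors (15 and 16), each from its own mouse. Response status is the study's own label, which rests on CD8 T cell infiltration and not on tumor volume, so that 2 tumors with more T cells form the responder group. Poly(A) RNA came from 2 sections of 100 microns of each frozen tumor.

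Collagens are secreted proteins built from 3 chains wound into a triple helix, and the genes of this family each encode 1 such chain. Fibrillar types (I, II, III, V, XI, XXIV, XXVII) assemble into the fibers that give tissue its tensile strength, type IV forms the sheet of basement membranes under epithelia and around vessels, and type VI forms beaded filaments between them. The FACIT types bind to the surface of fibrils, the multiplexins lie in basement membrane zones, a few types cross the cell membrane, and type VII anchors basement membranes to the fibrils below. In tumors, fibroblasts are the best known source of fibrillar collagen, and endothelial cells and pericytes are known sources of type IV.

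Total counts ranged from 26603477 to 39948874 per tumor, with a median of 34105794. In IgG tumor 3, 20.4% of counts fell on a ribosomal RNA-like gene, and mitochondrial genes held 7.60% of counts in IgG tumor 1, 6.00% in non-responder 9 and 5.74% in non-responder 14 against 2.52% to 3.25% in the other 13 tumors. The label of colorectal carcinoma did not show in epithelial markers: in the 14 IgG and non-responder tumors the summed level of 8 such markers was 4.67 to 12.5 CPM (counts-per-million units, scaled by TMM), Cdx2 was at 0 in 13 of them, and Krt8 did not exceed 1.37 CPM. The 2 responders held RNA of several other cell types above all 14 other tumors. The summed level of 7 B cell markers was 1202 and 301 CPM in responders 15 and 16 (in this order here and below) against 1.55 to 7.82 CPM in the others, that of 7 T cell markers 230 and 219 CPM against 7.76 to 31.4 CPM, that of 6 lymph node stroma and high endothelial markers 582 and 159 CPM against 0.394 to 5.01 CPM, and that of 6 adipocyte markers 2287 and 404 CPM against 16.8 to 144 CPM. The B cell and lymph node lists share Cr2. Other tissue was not confined to the responders. Summed over 7 skeletal muscle markers, levels were 3.91 to 2312 CPM in IgG tumors, 4.13 to 79.5 CPM in non-responders, and 7.66 and 17.2 CPM in the responders. The part of these cell types in the differences below was not tested. In these bulk samples, fewer cells of a type and less RNA per cell cannot be told apart.

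Collagen chains together took 0.763% to 1.24% of all counts, with a median of 0.987% over the 16 tumors. The share was 1.04% (median; 0.763% to 1.24%) in IgG tumors, 0.933% (0.773% to 1.18%) in non-responders, and 1.12% and 0.972% in the responders, so that the 3 groups overlapped. Of protein-coding counts alone, the chains took 0.788% to 1.33%. IgG tumor 3, with its many ribosomal RNA-like counts, was the highest on that measure, at 1.33% against 1% of all its counts. Fibrillar chains made up 51.7% to 65.7% of the collagen counts, collagen VI chains 16.9% to 29%, and collagen IV chains 6.92% to 10.8%. The responders lay at the upper end for the fibrillar share, at 65.7% and 63.1% against at most 61.2% in the other tumors, and at the lower end for collagen VI, at 16.9% and 20.8% against at least 21.4%. FACIT collagens held 1.76% to 3.11% and transmembrane collagens no more than 0.0775%.

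Of the 44 chains, 37 had enough counts to be tested, and the 7 that did not were Col2a1, Col10a1, Col9a1, Col9a2, Col19a1, Col25a1 and Col26a1. Col2a1 and Col9a1 encode chains of cartilage, and Col10a1 that of growth plate cartilage. None of the 7 exceeded 17 counts in a tumor, and the cartilage marker Acan was at 0 in 10 of the 14 IgG and non-responder tumors. Acan is 1 of 5 listed chondrocyte markers, and the others were not all absent. The 5 together summed to 52.5 to 309 CPM in IgG tumors, 77.5 to 216 CPM in non-responders, and 78.9 and 59.8 CPM in the responders. Levels of different genes were compared per kilobase of the longest coding transcript of each gene. Col3a1, the chain of type III fibrils, was the highest at 757 CPM per kilobase (median over 16 tumors), followed by the collagen VI chains Col6a1 at 228, Col6a2 at 118 and Col6a3 at 79.2 CPM per kilobase. The basement membrane chains Col4a1 at 78.3 and Col4a2 at 52.4 came next, then the type V chains Col5a1 at 44.7, Col5a3 at 42.8 and Col5a2 at 33.1, and the type VIII chain Col8a1 at 31.7 CPM per kilobase. The range of Col3a1 over the tumors, 645 to 1065 CPM per kilobase, lay above that of every other chain, and from Col6a1 (145 to 337) downward each chain overlapped with the next in this order. The type I chains, the main ones of skin, tendon and bone, were only at ranks 13 and 15, with Col1a2 at 24.7 and Col1a1 at 19.6 CPM per kilobase. With all annotated exons counted into the length, Col3a1 (429) and Col6a1 (213) kept ranks 1 and 2, while Col5a2 and Col8a1 fell to 22.9 and 20.6 and out of the first 10.

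**Figure D1:**
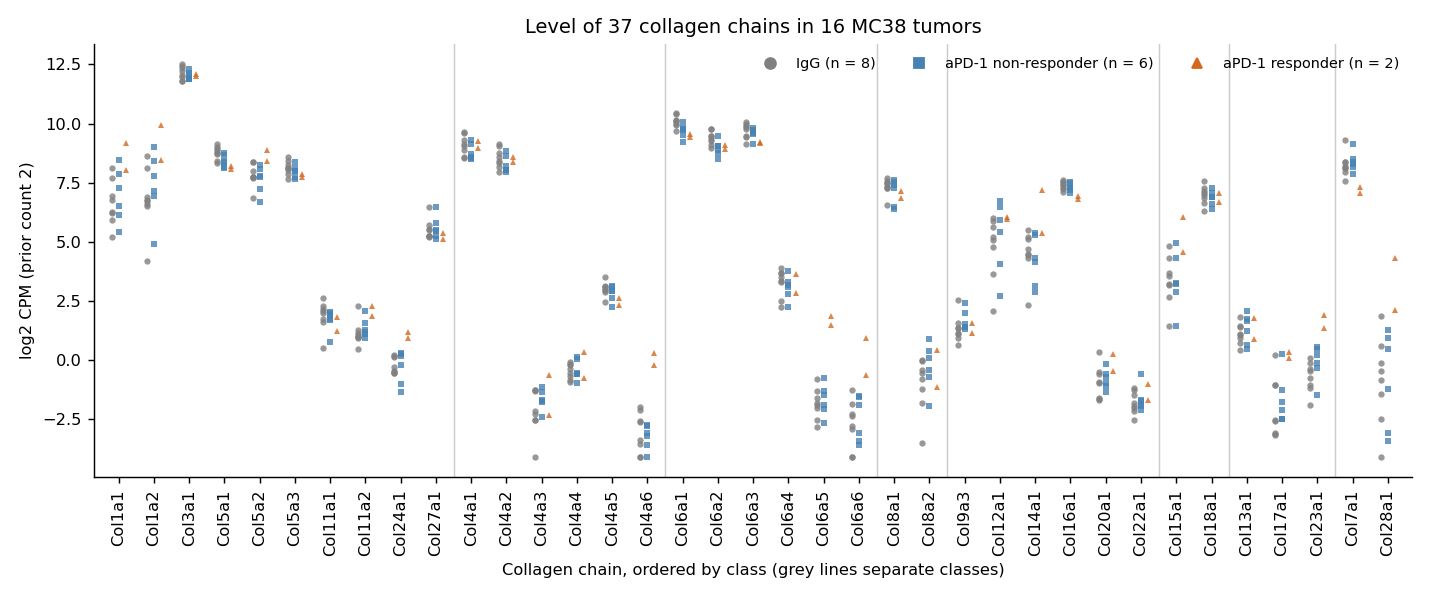
Level of the 37 tested collagen chains on the log2 CPM scale (prior count 2, y axis), with a point for each of 8 IgG, 6 non-responder and 2 responder tumors and the chains grouped by class along the x axis. Col3a1 sits at the top in every tumor, the chains Col1a1, Col1a2, Col12a1 and Col28a1 are spread widely, and Col4a6, Col6a5 and Col6a6 have both responders above all other tumors.

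Types I and III behaved differently across tumors. Col3a1 lay between 3588 and 5928 CPM in IgG tumors (median 4524), between 3744 and 5047 CPM in non-responders (median 4056), and at 4398 and 4183 CPM in the responders. Its range over the 14 IgG and non-responder tumors was 1.65-fold. Col1a2 spanned 27.8-fold over the same 14 tumors, from 18.3 CPM in IgG tumor 4 to 509 CPM in non-responder 11, with medians of 108 CPM in IgG tumors and 180 CPM in non-responders. Col1a1 spanned 9.61-fold, from 37 CPM in IgG tumor 4 to 356 CPM in non-responder 11. The responders were at 982 and 353 CPM for Col1a2 and at 586 and 265 CPM for Col1a1, so that responder 15 was above every other tumor and responder 16 was within their range. Per kilobase, Col3a1 exceeded Col1a1 by 8.00-fold in responder 15 and by 171-fold in IgG tumor 4. Counts of the 2 type I chains made up 15% of collagen counts in responder 15 and 0.442% in IgG tumor 4, with a median of 2.50% over 16 tumors. In a type I molecule 2 chains of Col1a1 join 1 of Col1a2. Per kilobase of the longest coding transcript, the ratio of Col1a1 to Col1a2 RNA was 0.632 (median). It was above 1 in 4 tumors, IgG tumors 1, 3 and 4 and non-responder 14. The order of the 2 chains depended on the length used. With all annotated exons counted into the length, Col1a1 was at 17.7 and Col1a2 at 10.6 CPM per kilobase (medians over 16 tumors).

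**Figure D2:**
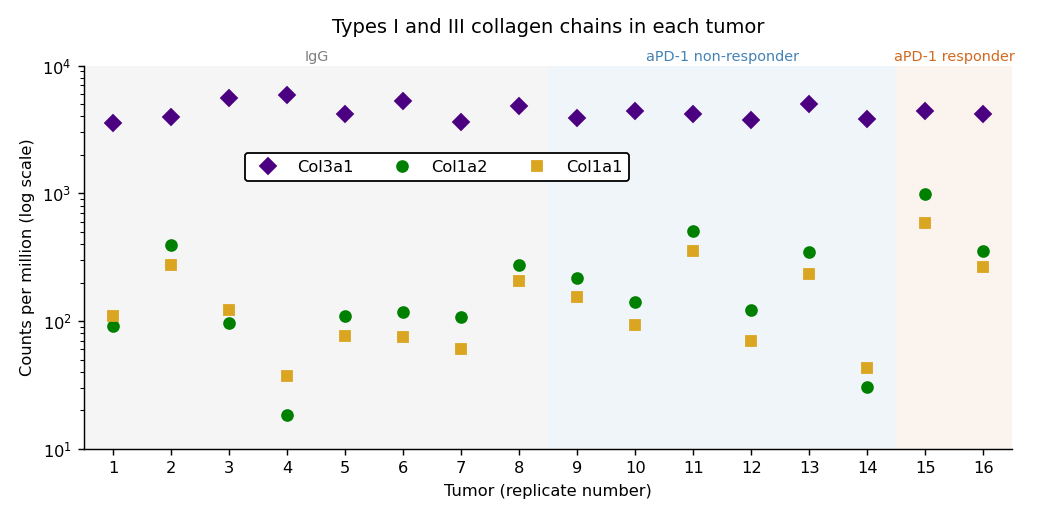
CPM (log axis) of Col3a1, Col1a2 and Col1a1 in each of the 16 tumors, with shading for the IgG, non-responder and responder groups. Col3a1 stays between 3588 and 5928 CPM, while Col1a2 runs from 18.3 to 982 CPM and Col1a1 follows it.

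Neither type I chain passed the test between groups. The log2 fold change of responders over non-responders was 1.55 ± 0.84 (SE) for Col1a2, with an adjusted p of 0.227, and 1.43 ± 0.69 for Col1a1, with an adjusted p of 0.172. Against IgG the values were 2.14 ± 0.77 (adjusted p = 0.0575) and 1.82 ± 0.64 (adjusted p = 0.0517). For Col3a1 they were 0.03 ± 0.19 against non-responders and -0.11 ± 0.19 against IgG. Throughout, adjusted p-values of group comparisons come from quasi-likelihood tests in edgeR, adjusted by Benjamini-Hochberg over 18251 genes, in a fit that held all 16 tumors.

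The promoter windows of Col3a1 and Col1a2 are shown as those of an abundant chain with little spread and one with a wide spread over the tumors. Each window runs from 250 bases before to 50 bases after the RefSeq start (GRCm38.p6), 5′ to 3′ on the strand of the gene. Capitals mark matches of 3 short motifs on either strand. These were the CCAAT box, the GC box with the letters GGGCGG, and the TATA box with the letters TATAAA. The Col3a1 window is chr1:45311288-45311587 (+) and that of Col1a2 is chr6:4505368-4505667 (+).
Col3a1: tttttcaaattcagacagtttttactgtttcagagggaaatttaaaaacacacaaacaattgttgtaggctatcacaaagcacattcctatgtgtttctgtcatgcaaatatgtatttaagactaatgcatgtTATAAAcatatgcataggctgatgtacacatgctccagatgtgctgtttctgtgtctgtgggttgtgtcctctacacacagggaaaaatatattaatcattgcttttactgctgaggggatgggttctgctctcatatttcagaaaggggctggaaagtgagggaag
Col1a2: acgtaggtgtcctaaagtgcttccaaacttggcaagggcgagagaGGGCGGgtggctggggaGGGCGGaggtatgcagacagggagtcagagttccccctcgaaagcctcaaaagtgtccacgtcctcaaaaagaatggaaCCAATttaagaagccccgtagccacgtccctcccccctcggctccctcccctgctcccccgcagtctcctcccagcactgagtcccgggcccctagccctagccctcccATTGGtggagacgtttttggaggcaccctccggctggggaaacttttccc
The Col3a1 window held 1 TATAAA and no CCAAT or GGGCGG, with 37.7% G and C. The Col1a2 window held 2 CCAAT and 2 GGGCGG and no TATAAA, with 61% G and C against a median of 52.7% over 32851 RefSeq promoter windows of this length. CCAAT was present in 37.4% of those windows, GGGCGG in 35.7% and TATAAA in 13.6%. RefSeq windows were at hand for 35 of the 44 collagen chains, of which 13 (37.1%) held CCAAT, 22 (62.9%) GGGCGG and 5 (14.3%) TATAAA. Windows were not at hand for Col1a1, Col2a1, Col4a3, Col5a2, Col9a3, Col12a1, Col14a1, Col22a1 and Col26a1.

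The question of whether chains that build the same molecule vary together was addressed in 10 pairs, and 4 of them passed an adjusted p of 0.05 over the 16 tumors. Pairs of other genes were not set beside them as a background. The strongest relation was between Col4a1 and Col4a2, the 2 chains of the common type IV molecule, with Pearson's r = 0.985 and Spearman's rho = 0.956. Col6a1 and Col6a2 followed with r = 0.952 and rho = 0.918, and Col1a1 and Col1a2 with r = 0.947 and rho = 0.885. The adjusted permutation p of r was 3.3e-05 in each of these 3 pairs, from a raw p of 1e-05, the smallest that 100000 permutations can give. Col6a1 and Col6a3 had r = 0.648 and rho = 0.706 (adjusted permutation p = 0.0186 and 0.0091). Without the 2 tumors farthest from the median of the first chain, r was 0.974, 0.916, 0.927 and 0.827 in these pairs. In the 14 tumors other than responders r was 0.989, 0.974 and 0.925 for the first 3 pairs and 0.558 for Col6a1 and Col6a3, whose adjusted permutation p was then 0.0767. With group means removed, r was 0.988, 0.957, 0.928 and 0.559, and the last again did not pass (adjusted permutation p = 0.0614).

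Other pairs that meet in a molecule or a fibril gave no call. Col1a1 and Col3a1, which can share fibrils, had r = -0.0391 and rho = 0.0941 (permutation p = 0.883 and 0.728, adjusted p = 0.883 and 0.809). Col5a1 and Col5a2 had r = 0.053 and rho = 0.132 over 16 tumors (adjusted permutation p = 0.883 and 0.776). Over the 14 tumors other than responders they had r = 0.452 and rho = 0.596 (adjusted permutation p = 0.173 and 0.0535), the latter just short of the threshold. In this pair the responders were apart from the others, since Col5a2 was at 346 and 477 CPM in responders against 103 to 332 CPM elsewhere, while Col5a1 was at 296 and 271 CPM against 277 to 562 CPM. Col11a1 and Col11a2 had r = -0.534 and rho = -0.391 (adjusted permutation p = 0.0651 and 0.246), and r fell in size to -0.322 without IgG tumor 1 and non-responder 14. Col8a1 and Col8a2, Col4a3 and Col4a4, and Col4a5 and Col4a6 had r = 0.233, 0.438 and -0.281, with adjusted permutation p = 0.481, 0.146 and 0.414. The pair Col9a2 and Col9a3 was not computed because Col9a2 had too few counts.

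**Figure D3:**
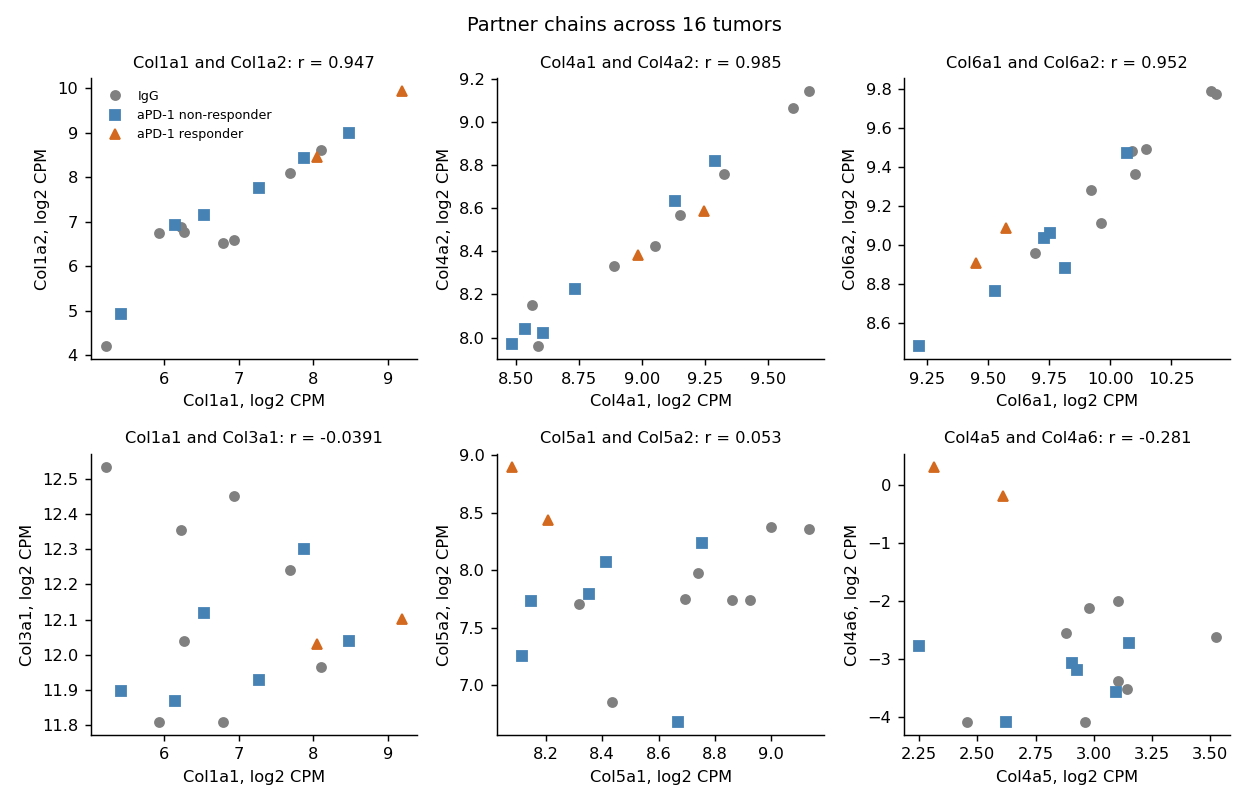
Log2 CPM of one chain against another in 16 tumors, for 6 of the 10 pairs, with Pearson's r over all tumors above each panel and the groups by color and shape. The upper panels (r = 0.947, 0.985 and 0.952) run along a line in all 3 groups, and the lower panels (r = -0.0391, 0.053 and -0.281) do not, with both responders apart for Col5a1 and Col5a2 and for Col4a5 and Col4a6.

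The extent of co-variation with the type I chains was described with Col1a2 as the reference, a choice made after its spread had been seen. Over the 14 IgG and non-responder tumors, 9 of 36 other tested chains had a positive r with an adjusted permutation p below 0.05 and none had a negative one. No such share over all tested genes is given, so whether this count is particular to collagen chains was not tested. The 9 chains were Col1a1 (r = 0.925), Col8a2 (0.909), Col15a1 (0.798), Col23a1 (0.760), Col12a1 (0.703), Col28a1 (0.683), Col13a1 (0.660), Col6a6 (0.656) and Col4a6 (0.651). Spearman's rho was 0.829, 0.895, 0.877, 0.749, 0.811, 0.745, 0.653, 0.585 and 0.638 in the same order, and the last 3 did not pass by rho (adjusted permutation p = 0.0594, 0.103 and 0.0594). Only Col1a1, Col8a2 and Col15a1 still passed without IgG tumor 4 and non-responder 11, the tumors farthest from the median, with r = 0.896, 0.807 and 0.851. Col28a1, Col8a2 and Col23a1 were at or below 3.64 CPM in all 14 tumors. Col6a6 was at or below 0.363 CPM and Col4a6 at or below 0.191 CPM, with 68 and 34 counts in all over the 14 tumors, so their r rests on few counts. Col12a1, a FACIT chain on type I fibrils, ran from 4.22 CPM in IgG tumor 1 to 105 CPM in non-responder 13, and Col15a1, a multiplexin of vessel and muscle basement membranes, from 2.68 CPM in non-responder 14 to 31.0 CPM in non-responder 11. Col3a1 had r = -0.179 with Col1a2 and the abundant chains of types IV, V and VI had r of -0.0232 to 0.169, none past the test. These values rested on the same 2 tumors: without IgG tumor 4 and non-responder 11, r was 0.256 for Col3a1, 0.558 for Col6a1, 0.555 for Col6a2, 0.482 for Col5a1 and 0.426 for Col4a2, again with none past the test (adjusted permutation p of 0.184 for Col6a1 and Col6a2).

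Among the 14 IgG and non-responder tumors, the 3 with high mitochondrial shares (IgG tumor 1 and non-responders 9 and 14) were the 3 highest for 4 of 37 chains, Col7a1, Col9a3, Col11a2 and Col27a1, and the 3 lowest for 4, Col5a2, Col8a1, Col14a1 and Col28a1. Such an order was found in 15.8% (highest) and 16.6% (lowest) of the 18251 genes tested, so the chains were not above the background. Col7a1 was at 630, 559 and 365 CPM in these 3 tumors and at 189 to 335 CPM in the other 11. Col5a2 was at 116, 103 and 152 CPM against 209 to 332 CPM, and Col14a1 at 5.02, 8.61 and 7.38 CPM against 17.9 to 44.9 CPM. The part of the mitochondrial share in these values was not tested. Without the 3 tumors, 9 chains (24.3%) passed as higher and 3 (8.11%) as lower in responders than in non-responders, where 17.8% and 14.7% of 17822 genes did. Against IgG, 10 (27%) and 6 (16.2%) passed, where 22% and 19.6% of genes did.

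The main contrast of the study, responders against non-responders, called 7 of 37 chains higher and 2 lower, and 28 did not pass. The same call was made for 15.4% (higher) and 4.34% (lower) of all 18251 genes tested, so the 18.9% and 5.41% of chains were near the background. A call here is an adjusted p below 0.05 at any fold change. The study also asked for a log2 fold change over 1 in size. The calls of Col16a1, Col5a1 and Col6a1, given below, did not reach that size (-0.45 to -0.64). Against IgG tumors, 7 chains were called higher and 4 lower, where the background was 17.7% and 5.17%. These comparisons share the responder tumors. The median log2 fold change of the 37 chains was 0.27 against non-responders and 0.37 against IgG, with 0.02 and -0.02 over all genes. The filter on low counts asks for as many tumors as the smallest group holds, 2 here and 6 without the responders. Without the responders 6 of the 37 chains did not pass it, Col4a3, Col4a6, Col6a5, Col6a6, Col17a1 and Col22a1, of which 3 were called higher. Only Col4a6 and Col6a6 needed a responder to reach 2 tumors. Among the 31 chains that passed without the responders, 4 were called higher and 2 lower against non-responders, where 12.5% and 4.94% of 15940 genes were. Both responders were above all 14 other tumors for 7 chains and below them for 2, against 16.7% and 7.84% of all genes. DESeq2 called 9 chains (24.3%) against non-responders and 12 (32.4%) against IgG, where it called 22.4% and 25.9% of all genes. Its calls were not all those of edgeR: against non-responders it called Col5a2 and not Col28a1, and against IgG it also called Col6a3.

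**Figure D4:**
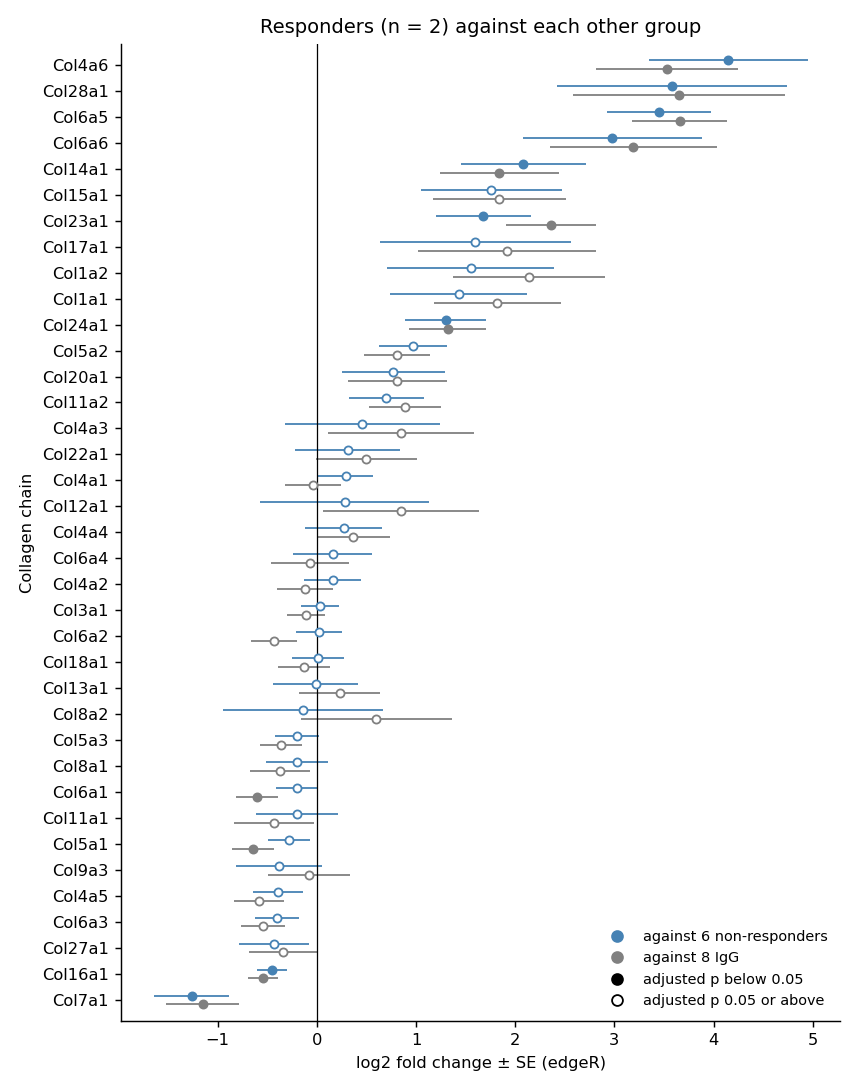
Log2 fold change with its SE (x axis) of 37 collagen chains (y axis) in 2 responders against 6 non-responders and against 8 IgG tumors, with filled points for an adjusted p below 0.05. The values run from -1.26 for Col7a1 to 4.15 for Col4a6 against non-responders, and Col3a1 and Col18a1 lie near 0.

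Within the fibrillar class, 1 of 10 tested chains was called higher in responders than in non-responders and none lower, beside 15.4% and 4.34% of all genes. Without the 3 tumors of high mitochondrial share 3 were called higher, Col24a1, Col5a2 and Col11a2. Col24a1, a minor fibrillar chain known from bone and cornea, was at 2.25 and 1.86 CPM in responders, at 0.944 CPM (median; 0.329 to 1.18) in non-responders and at 0.712 CPM (0.622 to 1.09) in IgG tumors. Both responders were above every other tumor. The log2 fold change was 1.3 ± 0.41 against non-responders (adjusted p = 0.0326) and 1.32 ± 0.39 against IgG (adjusted p = 0.0196). The call against non-responders did not pass without non-responder 10, non-responder 14, responder 15 or responder 16 (log2 fold change 1.23, 1.17, 1.08 and 1.38), and that against IgG not without responder 15 or 16 (1.10 and 1.40). The first also did not pass with no filter on low counts (adjusted p = 0.0676) or with only the 2 groups compared in the fit (adjusted p = 0.0918). Col5a2, a chain of the type V collagen that sets fibril width, also had both responders above all other tumors, with a log2 fold change of 0.97 ± 0.34 against non-responders, which did not pass in edgeR (adjusted p = 0.057) and passed in DESeq2 (adjusted p = 0.0336).

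Its partner Col5a1 was lower in responders than in IgG tumors. It was at 296 and 271 CPM in responders, at 446 CPM (319 to 562) in IgG tumors and at 334 CPM (277 to 432) in non-responders. Both responders were below all 8 IgG tumors, while responder 15 lay within the range of the non-responders. The difference on the log2 scale was -0.64 ± 0.21 against IgG (adjusted p = 0.0355) and -0.28 ± 0.21 against non-responders (adjusted p = 0.404). The call did not pass without IgG tumor 2, 3, 4 or 5 or without responder 15 or 16, with log2 fold changes of -0.57 to -0.78, nor with only the 2 groups compared in the fit (adjusted p = 0.0564). Col5a3, Col11a1, Col11a2 and Col27a1 did not pass in either comparison, with log2 fold changes of -0.43 to 0.89.

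Collagen IV molecules come in 3 forms: the common one of Col4a1 and Col4a2, that of Col4a3, Col4a4 and Col4a5 known from kidney filters, and that of Col4a5 and Col4a6 known from smooth muscle and skin. The genes lie head to head in pairs. Col4a1 (chr8:11198423-11312826, minus strand) and Col4a2 (chr8:11312805-11449287, plus strand) overlap by 22 bases in GRCm38. Col4a6 (chrX:141165403-141474076, minus strand) and Col4a5 (chrX:141475385-141689234, plus strand) are 1308 bases apart, and 71 bases lie between Col4a4 and Col4a3 on chromosome 1. The windows of the first 2 of these gene pairs are shown because Col4a1 and Col4a2 had the closest relation of all chain pairs and Col4a6, but not Col4a5, was called between responders and the other groups. The windows are chr8:11312777-11313076 (-) for Col4a1, chr8:11312555-11312854 (+) for Col4a2, chrX:141475169-141475468 (+) for Col4a5 and chrX:141474027-141474326 (-) for Col4a6, again with matches of the 3 motifs in capitals.
Col4a1: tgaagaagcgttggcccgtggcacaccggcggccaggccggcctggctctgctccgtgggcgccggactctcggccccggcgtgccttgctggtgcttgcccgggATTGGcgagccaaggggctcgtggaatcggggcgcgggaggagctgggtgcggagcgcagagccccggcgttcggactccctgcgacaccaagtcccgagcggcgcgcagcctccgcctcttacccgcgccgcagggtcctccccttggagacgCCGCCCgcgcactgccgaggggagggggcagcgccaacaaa
Col4a2: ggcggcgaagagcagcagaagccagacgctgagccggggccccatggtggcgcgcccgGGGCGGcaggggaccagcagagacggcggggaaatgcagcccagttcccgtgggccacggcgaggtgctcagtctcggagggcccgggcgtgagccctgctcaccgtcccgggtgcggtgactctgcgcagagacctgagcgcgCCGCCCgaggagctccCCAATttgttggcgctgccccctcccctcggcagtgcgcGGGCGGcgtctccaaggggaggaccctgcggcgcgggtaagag
Col4a5: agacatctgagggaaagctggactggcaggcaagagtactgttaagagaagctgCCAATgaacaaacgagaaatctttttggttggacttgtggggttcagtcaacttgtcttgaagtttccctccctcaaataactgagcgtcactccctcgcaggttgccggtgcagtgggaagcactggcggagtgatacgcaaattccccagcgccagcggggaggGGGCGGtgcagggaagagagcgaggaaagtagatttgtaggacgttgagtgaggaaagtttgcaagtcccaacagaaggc
Col4a6: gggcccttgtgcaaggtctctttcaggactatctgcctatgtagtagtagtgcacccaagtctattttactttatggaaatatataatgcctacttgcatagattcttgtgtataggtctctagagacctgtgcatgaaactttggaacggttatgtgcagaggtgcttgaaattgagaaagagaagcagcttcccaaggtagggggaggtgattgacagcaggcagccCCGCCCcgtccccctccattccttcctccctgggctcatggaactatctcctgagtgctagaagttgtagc
The windows of Col4a1 and Col4a2 share 78 bases, held 74% and 73.7% G and C, and had 1 CCAAT each with 1 and 3 GGGCGG. Those of Col4a5 and Col4a6 do not meet, held 52.7% and 48.3% G and C, and had 1 GGGCGG each, with 1 CCAAT in that of Col4a5. No matches overlapped in the 6 windows shown here and above. These matches describe letters in the windows and not bound sites.

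Col4a1 and Col4a2 kept a narrow ratio in all tumors. Col4a1 was at 549 CPM (median; 379 to 809) in IgG tumors, 408 CPM (358 to 625) in non-responders, and 606 and 506 CPM in the responders. Col4a2 was at 361 CPM (249 to 565), 281 CPM (251 to 452), and 384 and 333 CPM. The per-kilobase ratio of Col4a1 to Col4a2 was 1.3 to 1.54 over the 16 tumors, and the groups overlapped for both chains. Neither passed between groups, with log2 fold changes of 0.29 ± 0.28 and 0.16 ± 0.29 in responders against non-responders (adjusted p = 0.543 and 0.765).

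Col4a6 was detected at a low level and mainly in the responders. It was at 1.18 and 0.816 CPM in responders, at 0.0557 CPM (0 to 0.0916) in non-responders and at 0.0706 CPM (0 to 0.191) in IgG tumors, with both responders above all others. The 2 responders held 69 counts in all and the other 14 tumors 34. Col4a6 passed the filter on low counts only through the responders, so it had to differ to be tested at all, and its test is no independent support for a difference. The log2 fold change was 4.15 ± 0.80 against non-responders (adjusted p = 0.00128) and 3.53 ± 0.72 against IgG (adjusted p = 0.00154), and the latter did not pass without responder 15 (3.18, adjusted p = 0.0701). Its neighbor Col4a5 was at 4.91 and 6.05 CPM in responders, at 7.49 CPM (4.69 to 8.82) in non-responders and at 8.18 CPM (5.43 to 11.4) in IgG tumors, so that the groups overlapped. Col4a5 had a log2 fold change of -0.39 ± 0.25 (adjusted p = 0.33) and -0.58 ± 0.25 (adjusted p = 0.11). Col4a3 and Col4a4 were at or below 1.21 CPM in every tumor and did not pass. Of 7 smooth muscle and pericyte markers, 3 passed as higher in responders than in non-responders, beside 15.4% of all genes. Without the 3 tumors of high mitochondrial share 2 passed, where 17.8% of all genes did. The 7 markers summed to 341 and 160 CPM in responders against 52.2 to 174 CPM in the other tumors, so that responder 16 was within the range of the others. Myh11 of smooth muscle was at 36.9 and 12.2 CPM against at most 4.55 CPM. Epithelial markers were also higher, with 5 of 6 past the test and Krt8 at 31.9 and 13.1 CPM. Without the 3 tumors of high mitochondrial share 4 epithelial markers passed. Their part in the value of Col4a6 was not tested.

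In collagen VI, 2 of 6 chains, Col6a5 and Col6a6, were called higher in responders than in non-responders and none lower, beside 15.4% and 4.34% of all genes. Col6a6 passed the filter on low counts only through the responders, so it had to differ to be tested, and its test is no independent support for a difference. Col6a5 did not pass without the responders, when the filter asks for 6 tumors in place of 2, though tumors of the other groups reached its cutoff. Neither chain was tested when 10 counts in at least 8 tumors were asked for. Col6a1, Col6a2 and Col6a3 form the usual molecule, and Col6a4, Col6a5 and Col6a6, which lie side by side on chromosome 9, encode chains that can take the place of Col6a3. Col6a5 was at 3.55 and 2.70 CPM in responders, at 0.259 CPM (0.101 to 0.540) in non-responders and at 0.216 CPM (0.0831 to 0.520) in IgG tumors. Both responders were above all 14 others, with 216 counts in 2 responders and 124 in the 14 others. The difference on the log2 scale was 3.45 ± 0.52 against non-responders (adjusted p = 0.00012) and 3.66 ± 0.48 against IgG (adjusted p = 2.3e-05), and the adjusted p stayed at or below 0.00642 whichever tumor was left out. Col6a6 was at 1.86 and 0.591 CPM in responders against 0.137 CPM (0.0253 to 0.288) in non-responders and 0.111 CPM (0 to 0.363) in IgG tumors, again with no overlap. Its log2 fold change was 2.98 ± 0.90 (adjusted p = 0.0268) and 3.19 ± 0.84 (adjusted p = 0.0103). Without responder 15 neither Col6a6 call passed, with log2 fold changes of 1.87 and 2.08. Col6a4 overlapped between groups, at 12.5 and 7 CPM in responders and 4.64 to 14.8 CPM in the others.

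The abundant chain Col6a1 was lower in responders than in IgG tumors, and its level did not separate them from the non-responders. It was at 698 and 762 CPM in responders, at 1094 CPM (827 to 1381) in IgG tumors and at 855 CPM (594 to 1075) in non-responders. The log2 fold change against IgG was -0.60 ± 0.21 (adjusted p = 0.0444), and against non-responders -0.20 ± 0.21 (adjusted p = 0.584). The call against IgG did not pass without IgG tumor 2, 3, 4, 6 or 8 or without responder 15 or 16, with log2 fold changes of -0.54 to -0.72. It also did not pass with at least 10 counts in at least 8 tumors asked for (adjusted p = 0.0565) or with only the 2 groups compared in the fit (adjusted p = 0.0561). Col6a2 and Col6a3 were at -0.43 ± 0.23 (adjusted p = 0.213) and -0.54 ± 0.22 (adjusted p = 0.0876) against IgG.

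Among FACIT collagens, Col14a1 was called higher and Col16a1 lower in responders. Col14a1, a chain that binds fibrils in skin and tendon and takes part in their regular growth, was at 148 and 41.8 CPM in responders, at 19.0 CPM (7.38 to 41.5) in non-responders and at 24.1 CPM (5.02 to 44.9) in IgG tumors. Responder 15 was far above all others, and responder 16 was just above the highest non-responder and within the range of the IgG tumors. The log2 fold change was 2.08 ± 0.63 against non-responders (adjusted p = 0.0291) and 1.84 ± 0.60 against IgG (adjusted p = 0.0361). Without responder 15 the values were 0.83 and 0.59 (adjusted p = 0.712 and 0.791), and the calls also did not pass without non-responder 9, 10 or 12 (1.91 to 2.05) or IgG tumor 3, 4, 5 or 7 (1.79 to 1.83). Neither passed with no filter on low counts (adjusted p = 0.0788 and 0.09), and the first did not with only the 2 groups compared in the fit (adjusted p = 0.0528). The fibroblast marker Dpt, which encodes another fibril-binding protein, was at 322 and 129 CPM in responders against 68.0 to 133 CPM in the others. Of 8 fibroblast markers, 3 passed as higher against non-responders, beside 15.4% of all genes. Without the 3 tumors of high mitochondrial share 2 passed, where 17.8% of all genes did. The 8 markers summed to 1275 and 982 CPM in responders against 499 to 1037 CPM elsewhere, and their part in the value of Col14a1 was not tested.

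Col16a1, a FACIT chain near fine fibrils and basement membranes, had the lowest SD of log2 CPM of the 37 tested chains over the 14 IgG and non-responder tumors, 0.17, with a range of 1.47-fold. It was at 111 and 121 CPM in responders, at 155 CPM (134 to 185) in non-responders and at 169 CPM (138 to 198) in IgG tumors, and both responders were below all others. The difference on the log2 scale was -0.45 ± 0.15 (adjusted p = 0.0443) and -0.54 ± 0.15 (adjusted p = 0.0125). The first call did not pass without non-responder 9, 11 or 13 or without either responder, with values of -0.40 to -0.57, nor with at least 10 counts in at least 8 tumors asked for (adjusted p = 0.0594), and the second not without responder 15 (-0.55). Col12a1 overlapped between groups, with 0.28 ± 0.85 on the log2 scale against non-responders. Col9a3, Col20a1 and Col22a1 did not pass and were at or below 5.70 CPM.

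Col7a1, the chain of the anchoring fibrils of skin, had the lowest log2 fold change of the 37 chains in both responder comparisons. It was at 159 and 132 CPM in responders, at 326 CPM (235 to 559) in non-responders and at 288 CPM (189 to 630) in IgG tumors, with both responders below all 14 others. The log2 fold change was -1.26 ± 0.38 (adjusted p = 0.0265) and -1.15 ± 0.37 (adjusted p = 0.0323). Neither call passed without responder 15 (-1.47 and -1.36) or responder 16 (-1.19 and -1.08), where a lone responder was taken to vary like the other groups, and the second did not with only the 2 groups compared in the fit (adjusted p = 0.0523). Keratinocyte markers, of which 0 of 6 passed the test, summed to 11.7 and 9.22 CPM in responders against 4.83 to 52.6 CPM in the others.

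Col28a1 and Col23a1 were low in abundance and higher in responders. Col28a1, known from the surroundings of Schwann cells in peripheral nerve, was at 19.8 and 4.25 CPM in responders, at 0.840 CPM (0.0339 to 2.34) in non-responders and at 0.584 CPM (0 to 3.64) in IgG tumors. The difference on the log2 scale was 3.58 ± 1.16 (adjusted p = 0.0389) and 3.65 ± 1.07 (adjusted p = 0.0198). Without responder 15 these were 2.02 and 2.09 (adjusted p = 0.597 and 0.52), and the first did not pass either without non-responder 9, 10, 12 or 14 (3.33 to 3.68) or by DESeq2 (adjusted p = 0.0597). With no filter on low counts neither passed (adjusted p = 0.0901 and 0.0508). Schwann cell markers summed to 51.1 and 26.0 CPM in responders against 14.1 to 29.6 CPM in the others. Against non-responders 2 of 5 passed as higher, beside 15.4% of all genes, and the part of these markers was not tested. Col23a1, a chain that crosses the cell membrane, was at 3.72 and 2.47 CPM in responders, at 0.994 CPM (0.305 to 1.41) in non-responders and at 0.600 CPM (0.210 to 1.01) in IgG tumors. Both responders were above all others for both chains. For Col23a1 the log2 fold change was 1.68 ± 0.48 (adjusted p = 0.0204) and 2.36 ± 0.45 (adjusted p = 0.00087), and neither passed without responder 15 (1.29 and 1.97). Col13a1 and Col17a1, the other tested chains that cross the membrane, did not pass. Neither did Col15a1, at 65.9 and 23.7 CPM in responders against 2.68 to 31.0 CPM in the others, nor Col18a1, the source of endostatin, at 136 and 102 CPM against 79.6 to 191 CPM.

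**Figure D5:**
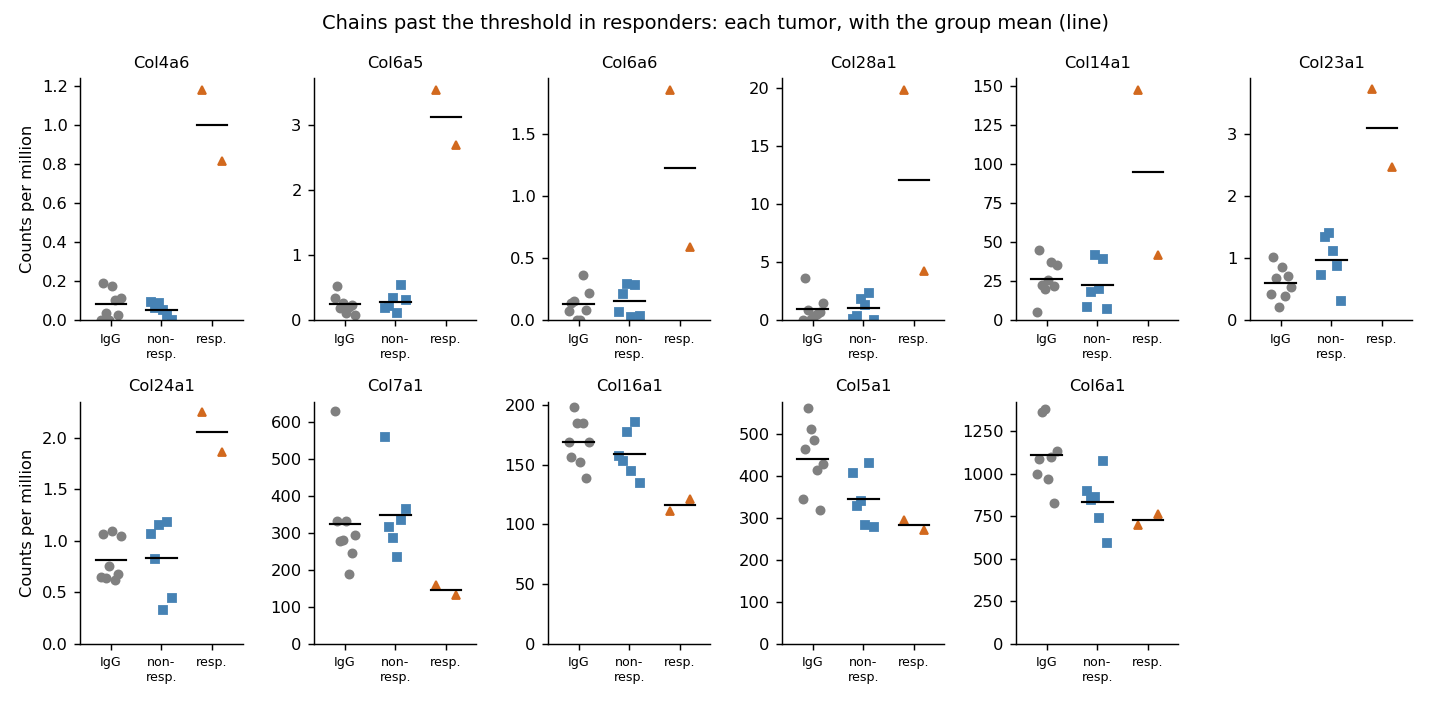
CPM of the 11 chains past the threshold in responders against non-responders or IgG tumors, with a point for each tumor and a line for the group mean (n = 8, 6 and 2). The responders are separate for Col4a6, Col6a5, Col6a6, Col28a1, Col23a1, Col24a1, Col7a1 and Col16a1, and they reach the range of another group for Col14a1, Col5a1 and Col6a1.

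Against IgG tumors, neither the non-responders nor all aPD-1 tumors together gave a collagen call by edgeR. Only the second of these comparisons disregards response. None of the 37 chains passed in non-responders against IgG tumors, where 0 of 18251 genes (0%) were called, and 3 chains and 694 genes (3.8%) had an unadjusted p below 0.05. The 3 chains were Col6a1 (-0.41 ± 0.14), Col6a2 (-0.45 ± 0.16) and Col5a1 (-0.36 ± 0.14), and DESeq2 called 0 chains. The median log2 fold change over the chains was 0.04 and that over all genes -0.01, with values from -0.62 for Col4a6 to 0.74 for Col8a2. With all 8 aPD-1 tumors against the 8 IgG tumors, again 0 chains and 0 genes (0%) passed, and 5 chains had an unadjusted p below 0.05, where 13.5% of all genes did, so that the chains were at the background. The lowest value was that of Col6a1 (-0.45, adjusted p = 0.153), which DESeq2 called (adjusted p = 0.0418), and the highest that of Col6a5 (2.01, adjusted p = 0.224), for which the 6 non-responders alone gave 0.21 ± 0.41 against IgG.

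Genes that make, cut and bind collagen are given from lists chosen beside the chains. Of 17 genes for chain hydroxylation and folding, 1 was called higher and 4 lower in responders than in non-responders, and 1 and 5 against IgG, beside 15.4% and 4.34% and, against IgG, 17.7% and 5.17% of all genes. Without the 3 tumors of high mitochondrial share 8 and 9 were called lower, where 14.7% and 19.6% of all genes were. Serpinh1, the collagen chaperone HSP47 and the most abundant of the list, was at 624 and 719 CPM in responders against 923 CPM (861 to 1051) in non-responders, with a log2 fold change of -0.49 ± 0.13 (adjusted p = 0.0142). Fkbp10, another chaperone of the endoplasmic reticulum, was at 99.4 and 106 CPM against 149 CPM (133 to 160), with -0.53 ± 0.12 (adjusted p = 0.00605). Crtap and P3h1, partners in a complex that hydroxylates a proline of fibrillar chains, were at -0.68 ± 0.15 (adjusted p = 0.00386) and -0.36 ± 0.12 (adjusted p = 0.0406). For all 4 genes both responders were below all 14 other tumors. The gene called higher against non-responders was Colgalt2, a collagen galactosyltransferase, at 1.89 and 0.872 CPM against 0.203 to 0.662 CPM.

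Of 7 tested genes for procollagen processing, 2 were called higher and 1 lower against non-responders, and 2 and 0 against IgG, and without the 3 tumors of high mitochondrial share these were 1 and 1, and 3 and 1, with the shares over all genes as given for the previous list. Adamts2, which removes the amino-terminal propeptide, was at 75.6 and 16.2 CPM in responders against 6.52 CPM (1.80 to 17.5) in non-responders, with a log2 fold change of 2.37 ± 0.71 (adjusted p = 0.026). Adamts3 was at 2.98 ± 0.93 (adjusted p = 0.0321) and its relative Adamts14 at -0.69 ± 0.20 (adjusted p = 0.0226), while Pcolce, the most abundant of the list per kilobase, was at -0.33 ± 0.32. Of 7 crosslinking genes, Loxl1 was called higher against non-responders at 1.24 ± 0.38 (adjusted p = 0.0276), and no gene of the list was without the 3 tumors. Tgm2, the most abundant, was at 0.50 ± 0.26 against non-responders and at 1.07 ± 0.24 (adjusted p = 0.0034) against IgG, and Lox did not pass (0.55 ± 0.49).

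Small proteoglycans on the fibril surface were called higher in responders than in non-responders in 4 of 7 cases, beside 15.4% of all genes, and in 3 without the 3 tumors of high mitochondrial share, where 17.8% of all genes were. Prelp was at 64.1 and 11.7 CPM in responders against 1.76 CPM (0.915 to 8.64) in non-responders, with 3.42 ± 0.86 (adjusted p = 0.00901), and Lum at 174 and 152 CPM against 43.5 CPM (11.8 to 64.4), with 1.91 ± 0.50 (adjusted p = 0.0117). Fmod and Bgn were at 2.50 ± 0.85 and 1.48 ± 0.50 (adjusted p = 0.0469 and 0.049). Dcn, the most abundant, was at 980 and 1333 CPM against 1372 CPM (1284 to 1512) and did not pass.

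Basement membrane partners of collagen IV were called higher in responders than in non-responders in 6 of 15 cases and lower in none, beside 15.4% and 4.34% of all genes, and in 5 and 1 without the 3 tumors of high mitochondrial share. Lama5, Lamb3, Lama3 and Lamc3, all laminin chains, had log2 fold changes of 2.38 ± 0.40, 3.47 ± 0.67, 1.55 ± 0.30 and 3.40 ± 0.93 against non-responders (adjusted p = 0.00039, 0.00122, 0.00127 and 0.0151). Lama2 and Nid1 were the other 2. Lamb3, Lamc3 and the processing gene Adamts3 did not pass the filter on low counts without the responders, when it asked for 6 tumors. Their tests may therefore rest on the responders' own counts and are no independent support for a difference. Lamb1, the most abundant, was at 255 and 240 CPM in responders against 320 CPM (247 to 344) and did not pass, nor did the perlecan gene Hspg2. Of 9 tested collagen receptors, the integrins Itga1 (1.36 ± 0.31, adjusted p = 0.00437) and Itga2 (1.79 ± 0.47, adjusted p = 0.0117) were called higher against non-responders, and Itga11 as well against IgG (2.05 ± 0.69, adjusted p = 0.0402), where 15.4% and 17.7% of all genes were. Itgb1, the shared partner of these integrins and the most abundant of the list, was at 0.01 ± 0.33, and the receptor Ddr2 at -0.40 ± 0.19. Of 8 endothelial markers, 3 passed as higher against non-responders, beside 15.4% of all genes, and 2 did without the 3 tumors of high mitochondrial share. The 8 markers summed to 433 and 240 CPM in responders against 73.7 to 242 CPM in the others, and their part in the laminin and integrin values was not tested.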

How the data were processed

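Bulk RNA-seq of 16 MC38 tumors was analysed. The authors used STAR 2.6 for alignment to GRCm38 and RSEM 1.3.0, on Ensembl release 91, to quantify genes. The values are the expected counts the authors deposited, not normalized, in 1 table with a column per tumor, and they were rounded to whole numbers here (7.84% were not whole). The 92 spike-in entries that name no gene, at most 185 counts in a tumor, were left out of 53557 table entries. Symbols and coordinates came from GENCODE M21 (GRCm38), which matched 53360 of 53465 identifiers. RSEM splits reads that fit several genes, so chains with overlapping or similar transcripts share some uncertainty.

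Groups were taken from the response labels. Group comparisons were made in edgeR 4.0.16 (R 4.3.3). Counts were scaled by TMM and filtered by filterByExpr at its default minima of 10 and 15 counts, and a robust quasi-likelihood model was fitted to the 16 tumors together. The Benjamini-Hochberg adjustment covered 18251 genes, with a threshold of 0.05 and no minimum fold change. DESeq2 1.42.0 was an alternative. Tests were two-sided. On simulated counts with 200 changed genes, 47% of 2-fold and 78% of 4-fold changes passed in the responder against non-responder comparison (17774 genes). The changed genes were drawn only above a minimum mean count, so these shares do not cover chains of lower counts such as Col4a6 and Col6a6. In the data 2806 genes were called higher in this comparison, so the shares recovered there may differ. Of the simulated calls, 3.85% were false in this comparison and 6.72% in responders against IgG tumors. No 2 tumors agreed within sampling noise (chi-square per degree of freedom of at least 16.5 in 120 pairs). Correlations used log2 CPM with a prior count of 2 and 100000 permutations in Python 3.11.15 (numpy 2.4.6). Pairs and lists were adjusted within their own family of 10 or 36 relations. The alternatives were another scaling, other filters, a fit restricted to the compared groups, and each tumor left out in turn. Shares of counts were described for each tumor and not tested.

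Members, gene lists, the chain pairs and the rule for the genes named were chosen with earlier results of these data known. The rule took every chain past the threshold in a comparison, the 10 most abundant per kilobase, the chains of the pairs, the highest and lowest log2 fold change of each comparison, and from each other list at most 4 genes of smallest p that passed in a responder comparison, plus the most abundant. Colgalt2, Adamts14, Lox, Ddr2, Hspg2, Lama2, Nid1 and further chains were named after their values were seen.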

Additional observations from a re-analysis of the deposited data

Results flagged for a closer look

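In 54 groups (27 named chains in the 8 IgG tumors and the 6 non-responders), 7 tumors lay far from the rest of their group on the log2 CPM scale by Dixon's criterion, which chance alone meets in about 5% of groups. Of these, 5 were values of IgG tumor 1, the library with the fewest counts and the highest mitochondrial share. It was at 5.02 CPM for Col14a1 against 20.1 to 44.9 CPM in the other 7 IgG tumors, at 116 CPM for Col5a2 against 209 to 332 CPM, and at 94.2 CPM for Col8a1 against 156 to 206 CPM. It was high for Col7a1, at 630 CPM against 189 to 332 CPM, and for Col11a2, at 4.79 CPM against 1.32 to 2.38 CPM. IgG tumor 4 was at 0 CPM for Col4a3 against 0.112 to 0.363 CPM in the other IgG tumors, a difference of few counts. Non-responder 14 was at 1.66 CPM for Col11a1 against 3.23 to 4.05 CPM in the other 5 non-responders.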

How the results depend on the processing

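Depth limits the chains under about 1 CPM, such as Col4a6 and Col6a6, and 2 responders limit every responder comparison. Against non-responders, 4 chains in place of 7 were called higher with no filter on low counts and also when at least 10 counts in at least 8 tumors were asked for. That stricter filter left 1 chain in place of 2 called lower, and 4 in place of 7 higher against IgG. It leaves out chains that are counted mainly in the responders. With only the 2 groups compared in the fit, 5 chains in place of 7 were higher against non-responders. Against IgG that fit gave 10 in place of 7 higher and 1 in place of 4 lower. The cause was not tested. With 1 tumor left out, the counts ran from 2 to 8 (higher) and 0 to 2 (lower) against non-responders and from 1 to 10 and 0 to 5 against IgG. The lowest counts, 2 and 0 against non-responders and 1 and 0 against IgG, were those without responder 15, without which 17 of 20 chain calls did not pass. DESeq2 called 1 chain lower in all aPD-1 tumors against IgG, where edgeR called 0. The collagen share was 0.505% in place of 0.987% without Col1a1, Col1a2 and Col3a1, as those chains were taken out of the sum. The median-of-ratios scaling kept all 20 chain calls on their side of the threshold, and no fold change of a called chain reversed under any alternative run. No paired analysis was possible because each replicate number stands for 1 tumor and no number is shared between groups.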
